A study of Mus musculus with 6 samples.

Results

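The CXC chemokines are small secreted proteins, named for the spacing of their first cysteines, that guide leukocytes by binding receptors on those cells. The members described here were chosen by gene symbol: Cxcl1, Cxcl2, Cxcl3, Cxcl9, Cxcl10, Cxcl11, Cxcl14, Cxcl16, Pf4 and Ppbp. Of these 10 genes, 9 had a row among the 16906 genes of the deposited gene table, and all 9 were among the 12892 genes that passed the filter on low counts. Cxcl11 was not analysed here; RefSeq annotates it in GRCm38.p6, the C57BL/6J genome, as a transcribed pseudogene.

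The cells were wild-type mouse macrophages (BMDMs) grown in culture from the bone marrow of C57BL/6 mice. The culture lasted 7 days, in medium with 10% serum and with 10 ng/ml of the growth factor M-CSF. In the stretched group, macrophages received exosomes of epithelial cells that had undergone 6 h of cyclic stretch. In the unstretched group, they received exosomes of epithelial cells that had not been stretched. Exosomes are small vesicles released by cells, and the dose was 100 µg/ml for 12 h in both groups. Each group had 3 libraries, and no library came from macrophages without exosomes, so the effect of exosomes as such is not measured. No source used here names the species or origin of the epithelial cells. The labels do not say whether the replicates are separate animals or cultures. The p-values therefore measure only the spread between these samples, and that spread may be technical. In bulk RNA, fewer cells of a type and less RNA per cell cannot be told apart.

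The family falls into groups with different receptors and inducers. Cxcl1, Cxcl2 and Cxcl3 carry a glutamate-leucine-arginine (ELR) motif before the first cysteine, bind CXCR2 and attract neutrophils. Their genes respond to NF-kB, the transcription factor activated downstream of Toll-like receptors and of interleukin 1. Ppbp encodes the ELR chemokine precursor that platelets store and that proteases trim to its neutrophil-attracting form. Cxcl9, Cxcl10 and Cxcl11 lack the motif, are induced by interferons and attract activated T cells and natural killer cells through CXCR3.

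The DNA upstream of the ELR and interferon-induced members is shown because letter patterns bound by NF-kB and by interferon-activated factors can be read in it. Each line gives the 250 bases before the annotated start of transcription, 5′ to 3′ on the gene's own strand, from RefSeq on GRCm38.p6. Capitals mark matches, on either strand, to 4 patterns. The NF-kB pattern was 3 G, any 2 bases, 2 T, any 1 base and 2 C, and the interferon-response pattern was GAAA, any 2 bases and GAAA. The AP-1 pattern was TGANTCA and the TATA box was TATAAA.
Cxcl1 (chr5:90890995-90891244, plus strand): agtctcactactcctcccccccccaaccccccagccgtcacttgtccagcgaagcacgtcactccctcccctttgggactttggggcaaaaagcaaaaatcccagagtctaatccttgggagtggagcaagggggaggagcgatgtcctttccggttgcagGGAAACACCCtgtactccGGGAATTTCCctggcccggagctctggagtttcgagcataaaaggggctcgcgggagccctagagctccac
Cxcl2 (chr5:90903649-90903898, plus strand): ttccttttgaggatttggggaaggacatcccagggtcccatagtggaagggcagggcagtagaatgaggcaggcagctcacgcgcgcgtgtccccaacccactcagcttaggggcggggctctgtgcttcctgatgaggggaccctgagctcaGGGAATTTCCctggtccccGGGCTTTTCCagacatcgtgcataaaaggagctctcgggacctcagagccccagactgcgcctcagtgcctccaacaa
Cxcl3 (chr5:90785851-90786100, plus strand): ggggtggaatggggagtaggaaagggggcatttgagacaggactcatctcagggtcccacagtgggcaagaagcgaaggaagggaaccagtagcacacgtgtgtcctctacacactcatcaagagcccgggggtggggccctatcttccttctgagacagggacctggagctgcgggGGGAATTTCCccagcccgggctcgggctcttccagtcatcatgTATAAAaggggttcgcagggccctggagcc
Ppbp (chr5:90768268-90768517, plus strand): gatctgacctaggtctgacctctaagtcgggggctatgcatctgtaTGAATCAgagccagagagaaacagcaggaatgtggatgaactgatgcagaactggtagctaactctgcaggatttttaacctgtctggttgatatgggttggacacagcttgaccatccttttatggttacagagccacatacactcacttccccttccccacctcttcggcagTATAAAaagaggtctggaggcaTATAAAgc
Cxcl9 (chr5:92328080-92328329, minus strand): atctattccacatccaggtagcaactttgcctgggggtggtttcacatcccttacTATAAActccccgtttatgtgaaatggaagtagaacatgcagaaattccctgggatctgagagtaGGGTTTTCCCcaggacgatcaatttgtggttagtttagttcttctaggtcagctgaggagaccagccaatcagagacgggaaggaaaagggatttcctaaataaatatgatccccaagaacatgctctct
Cxcl10 (chr5:92348890-92349139, minus strand): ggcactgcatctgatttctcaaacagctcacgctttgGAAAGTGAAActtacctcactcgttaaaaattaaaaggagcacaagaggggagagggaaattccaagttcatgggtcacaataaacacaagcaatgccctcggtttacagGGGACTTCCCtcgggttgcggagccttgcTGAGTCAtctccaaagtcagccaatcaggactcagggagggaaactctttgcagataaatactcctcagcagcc

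Matches were searched from 250 bases before to 50 bases after the start, and a match describes letters, not binding. The sequence GGGAATTTCC stood once in each of Cxcl1, Cxcl2 and Cxcl3, with its first base 71, 97 and 73 bases before the start in that order. Cxcl1 and Cxcl2 each held another match to the NF-kB pattern within 20 bases of it. The pattern occurred once in Cxcl9, as GGGTTTTCCC, and once in Cxcl10, as GGGACTTCCC. Ppbp and Pf4 held no match to it, nor did Cxcl14. Of all 32851 promoter windows in the RefSeq table, 4.79% held the NF-kB pattern. The interferon-response pattern was matched in Cxcl10, as GAAAGTGAAA, and in Cxcl14, as GAAACAGAAA, against 3.44% of all windows. The AP-1 pattern was matched in Cxcl10, Ppbp and Cxcl9, the last of them after the start and so outside the printed bases, against 7.81% of all windows. TATAAA was matched in Cxcl3, Ppbp and Cxcl9, against 13.6% of all windows. Its first base lay 30 bases before the start in Cxcl3, 30 and 8 bases before it in Ppbp and 195 bases before it in Cxcl9. These patterns do not overlap one another in the members, and 8 of the 10 members had a promoter entry.

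**Figure D1:**
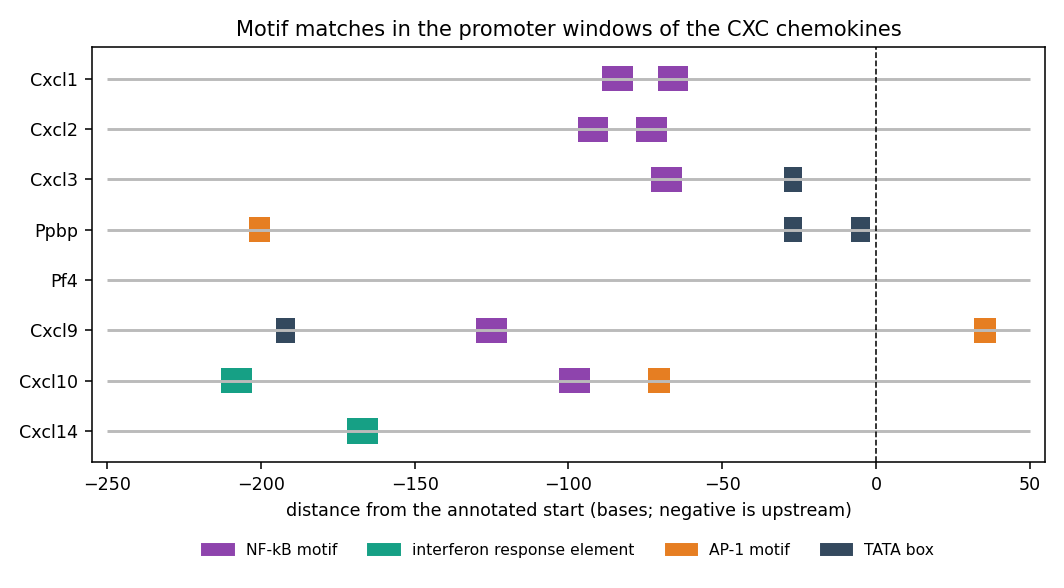
Positions of the motif matches in the promoter windows of the 8 members with a RefSeq entry, as distance in bases from the annotated start (negative is upstream). The NF-kB matches of Cxcl1, Cxcl2 and Cxcl3 lie between 97 and 71 bases upstream, and Pf4 has no match.

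Library totals ran from 17295476 to 17383971 estimated counts in the stretched group and from 16984561 to 17625991 in the unstretched group. Levels below are estimated counts scaled to the TMM-adjusted library size (CPM). Unstretched 3 stood apart from the other libraries on the second principal component, which held 26.2% of the variance. Its correlation with the other unstretched libraries was 0.95 with each. All 10 neutrophil markers and all 6 monocyte markers were higher in unstretched 3 than in the mean of unstretched 1 and 2, by a median of 1.44 and 1.90 on the log2 scale. None of the 8 macrophage markers was at 0 in any library, and their summed level was 17469 to 21363 CPM in stretched libraries and 19461 to 28415 CPM in unstretched libraries. Most of that sum was 1 gene, Lyz2, at 10307 to 14318 CPM in stretched and 11425 to 21027 CPM in unstretched libraries, highest in unstretched 3. Since unstretched 3 stands apart, calls of members that change without it are given both ways.

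In stretched libraries 4 members were higher past the threshold (edgeR's quasi-likelihood test, Benjamini-Hochberg adjusted p under 0.05) and 0 were lower, while 5 did not pass. Over all genes tested, 6.55% were called higher and 5.38% lower, and with the replicate numbers as a block (below, the replicate block) the genes called lower went to 408 in place of 694. The 4 members were the ELR chemokines Cxcl1, Cxcl2 and Cxcl3 and the interferon-induced Cxcl9. In the same 4 genes every stretched library lay above every unstretched library, a separation seen in that direction in 18.5% of all genes, in the other direction in 18.2% and in either in 36.7%. The median log2 fold change was 2.71 over the 4 ELR members, 1.32 over the 2 analysed interferon-induced members and 0.80 over Cxcl14, Cxcl16 and Pf4, beside -0.0020 over all genes tested. Markers of some other cell types moved as well. The sum was higher in every stretched library for epithelium, for dendritic cells and for megakaryocytes and platelets (the last given with Pf4 below). Markers of epithelium summed to 20.8 to 39.8 CPM in stretched and 11.4 to 15.4 CPM in unstretched libraries, with 1 of 3 tested markers (Epcam) called higher, the keratins untested and Krt8 at 0 in 4 libraries. Those of dendritic cells summed to 24.3 to 46.1 CPM in stretched and 7.84 to 23.1 CPM in unstretched libraries, with 1 of 5 (Ccr7) called higher. Those of monocytes summed to 2250 to 2652 CPM in the stretched libraries, against 651, 772 and 2518 CPM in unstretched 1 to 3, so that unstretched 3 alone of its group was as high as the stretched libraries. Of the 6 monocyte markers, 1 (Hp) was called higher. Those of neutrophils summed to 6272 to 11288 CPM in stretched libraries and 4360 to 14535 CPM in unstretched libraries, with 1 of 10 (Lcn2) called higher. Of the 8 macrophage markers, 1 (Mertk) was called higher and 0 lower, and 4 had a positive log2 fold change. Mertk, Cd68 and Fcgr1 were higher and Adgre1 was lower in every stretched library. The part of any of these cells in the levels of the chemokines was not tested.

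**Figure D2:**
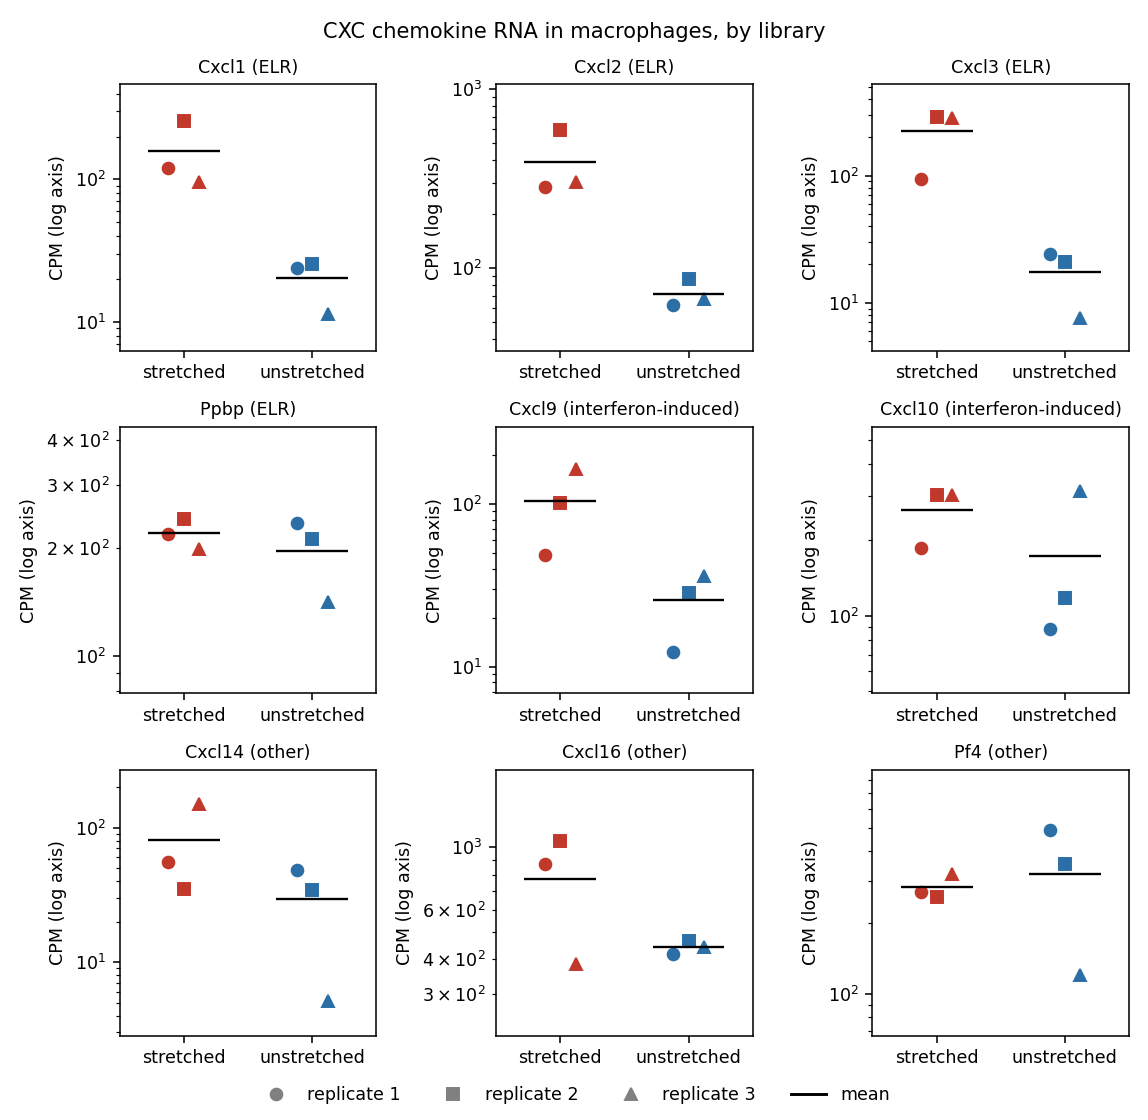
Level of each CXC chemokine in CPM on a log axis, with a circle, square or triangle for libraries 1, 2 and 3 and a line at the group mean. The groups do not overlap in Cxcl1, Cxcl2, Cxcl3 and Cxcl9, and unstretched 3 is the highest library of all in Cxcl10 and the lowest in Pf4, Ppbp and Cxcl14.

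Cxcl3, a CXCR2 ligand, had the largest fold change of the members. Its level was 94.0, 290.2 and 286 CPM in stretched 1 to 3, against 24.2, 20.8 and 7.56 CPM in unstretched 1 to 3. Stretched 1 was the lowest of its group and still lay above every unstretched library. The means were 223 ± 112 CPM in stretched and 17.5 ± 8.78 CPM in unstretched macrophages (SD, n = 3 each). Cxcl3 rose 12.8-fold, a log2 fold change of 3.67 ± 0.57 (SE; 95% interval 2.34 to 5.01; edgeR adjusted p = 0.0179), which ranked 23 among all genes tested by log2 fold change.

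Cxcl1, the mouse chemokine also known as KC, followed a like order of groups but a different order of libraries. It stood at 121, 258 and 96.4 CPM in stretched 1 to 3, against 23.7, 25.5 and 11.3 CPM in unstretched 1 to 3. Stretched 2 was the highest library and unstretched 3 the lowest. Means were 158 ± 87.2 CPM in stretched and 20.2 ± 7.74 CPM in unstretched macrophages (SD, n = 3 each). The rise was 7.85-fold, with a log2 fold change of 2.97 ± 0.46 (95% interval 1.90 to 4.04; edgeR adjusted p = 0.0179).

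Cxcl2, also known as MIP-2, was the most abundant of the 3 per length (FPKM, below). It measured 282, 590.0 and 302 CPM in stretched 1 to 3, against 62.1, 86.3 and 66.8 CPM in unstretched 1 to 3. As in Cxcl1, stretched 2 was the highest library. Cxcl2 averaged 391 ± 172 CPM in stretched and 71.8 ± 12.8 CPM in unstretched macrophages (SD, n = 3 each). It rose 5.45-fold, a log2 fold change of 2.45 ± 0.32 (95% interval 1.70 to 3.19; edgeR adjusted p = 0.0145).

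Each of these 3 calls was lost when certain single libraries were left out, while the fold changes remained large. Without stretched 2 the adjusted p of edgeR was 0.0580 for Cxcl1 and 0.0748 for Cxcl3. Without unstretched 1 it was 0.0614 for Cxcl1, 0.0521 for Cxcl2 and 0.0534 for Cxcl3, and without unstretched 2 it was 0.0601, 0.0541 and 0.0718 in the same order. Across all 15 alternatives, log2 fold changes ran from 2.41 to 3.20 for Cxcl1, from 2.0 to 2.63 for Cxcl2 and from 3.08 to 4.04 for Cxcl3.

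Ppbp, the ELR member stored by platelets, did not pass the test. It was at 219.5, 242 and 199 CPM in stretched 1 to 3, against 234, 212 and 142 CPM in unstretched 1 to 3. The groups overlapped, and unstretched 3 was the lowest library. The means were 220.1 ± 21.3 CPM in stretched and 196 ± 48.2 CPM in unstretched macrophages (SD, n = 3 each). The log2 fold change was 0.17 ± 0.21 with a 95% interval of -0.31 to 0.65 (edgeR adjusted p = 0.616), an interval that lies below those of Cxcl1, Cxcl2 and Cxcl3. The interval bounds the difference between groups and does not show that it was absent.

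Of the interferon-induced members, Cxcl9 passed the test. Its level was 48.7, 101 and 165 CPM in stretched 1 to 3, against 12.4, 28.3 and 35.9 CPM in unstretched 1 to 3. Stretched 3 was the highest library and unstretched 1 the lowest. The means were 105 ± 58.1 CPM in stretched and 25.5 ± 12.0 CPM in unstretched macrophages (SD, n = 3 each). Cxcl9 rose 4.10-fold, a log2 fold change of 2.04 ± 0.51 (95% interval 0.85 to 3.23; edgeR adjusted p = 0.0442). This call lay close to the threshold. Leaving out stretched 1, 2 or 3 gave an adjusted p of 0.0607, 0.137 or 0.102 in edgeR, leaving out unstretched 1 or 2 gave 0.112 or 0.124, and limma on log2(FPKM + 1) gave 0.0621. With the replicate number as a block it was 0.0179.

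Cxcl10 depended on unstretched 3. It measured 187, 303 and 302 CPM in stretched 1 to 3, against 88.5, 118 and 313 CPM in unstretched 1 to 3. Unstretched 3 was the highest of all 6 libraries, and unstretched 1 and 2 were the lowest. Cxcl10 averaged 264 ± 67.0 CPM in stretched and 173 ± 122 CPM in unstretched macrophages (SD, n = 3 each). The log2 fold change was 0.61 ± 0.46 (95% interval -0.47 to 1.69) and did not pass the test (edgeR adjusted p = 0.402). Without unstretched 3 it was 1.36 ± 0.26 and passed (edgeR adjusted p = 0.0112), and without stretched 3 and unstretched 3 together it was 1.23 (edgeR adjusted p = 0.0100), a setting chosen after seeing the data. The summed monocyte markers had a like order, with all stretched libraries and unstretched 3 above unstretched 1 and 2, and their part in the level of Cxcl10 was not tested.

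Cxcl16, a ligand of CXCR6 that is made as a membrane-bound protein and shed by proteases, split the stretched group. It stood at 876, 1053 and 384 CPM in stretched 1 to 3, against 418, 465 and 442 CPM in unstretched 1 to 3. Stretched 1 and 2 lay above every unstretched library and stretched 3 below them all. The means were 771 ± 346 CPM in stretched and 441 ± 23.5 CPM in unstretched macrophages (SD, n = 3 each), with a log2 fold change of 0.80 ± 0.34 (edgeR adjusted p = 0.156). Without stretched 3 the log2 fold change was 1.10 ± 0.17 and passed (edgeR adjusted p = 0.0286). Cxcl16 overlaps Zmynd15 by 552 bases on chromosome 11. Zmynd15 had 78.0 CPM in stretched and 39.7 CPM in unstretched macrophages and was called higher (log2 fold change 0.97, edgeR adjusted p = 0.0282). Whether counting used strand is not stated, so both genes' values are uncertain.

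Pf4, platelet factor 4, belongs to the ELR-lacking CXC chemokines and is stored in the granules of platelets. It had 269, 255 and 319 CPM in stretched 1 to 3, against 489.8, 353 and 120.3 CPM in unstretched 1 to 3. The unstretched libraries held both the highest and the lowest values. Means were 281 ± 33.8 CPM in stretched and 321 ± 187 CPM in unstretched macrophages (SD, n = 3 each), a log2 fold change of -0.19 ± 0.44 (edgeR adjusted p = 0.801). Without unstretched 3 it was -0.59 ± 0.19 (edgeR adjusted p = 0.0541), and without stretched 3 and unstretched 3 together Pf4 fell by 0.70 ± 0.18 on the log2 scale (edgeR adjusted p = 0.0234). Megakaryocyte and platelet markers summed to 250 to 352 CPM in stretched and 222 to 237 CPM in unstretched libraries. None of those 10 markers passed the edgeR test in either direction, and 6 had an unadjusted p under 0.05, beside 4083 of the 12892 genes tested. DESeq2 called 2 of the markers higher, beside 1398 of all genes. The part of these markers in the levels of Pf4 and Ppbp was not tested.

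Cxcl14, a chemokine best known from epithelia and stroma, had the widest 95% interval of its log2 fold change among the members. Its level was 55.7, 34.8 and 150 CPM in stretched 1 to 3, against 48.4, 34.2 and 5.11 CPM in unstretched 1 to 3. Libraries 1 and 2 lay close to each other across the groups, with stretched 3 far above and unstretched 3 far below them. The means were 80.2 ± 61.4 CPM in stretched and 29.2 ± 22.1 CPM in unstretched macrophages (SD, n = 3 each), and the log2 fold change of 1.46 ± 0.79 did not pass the test (edgeR adjusted p = 0.247). It was 0.61 without stretched 3, 0.96 without unstretched 3 and 0.11 without stretched 3 and unstretched 3 together. The 7 stromal markers summed to 5968, 4709 and 6741 CPM in stretched 1 to 3, against 3943, 3589 and 4880 CPM in unstretched 1 to 3. Their sum was highest in stretched 3, as was Cxcl14, and within the unstretched group it was highest in unstretched 3, where Cxcl14 was lowest. Of these markers 0 passed the edgeR test in either direction, and 2 had an unadjusted p under 0.05, beside 4083 of the 12892 genes tested. DESeq2 called 2 higher and edgeR with the replicate block 3, beside 1398 and 755 of all genes. The part of these markers in the level of Cxcl14 was not tested.

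**Figure D3:**
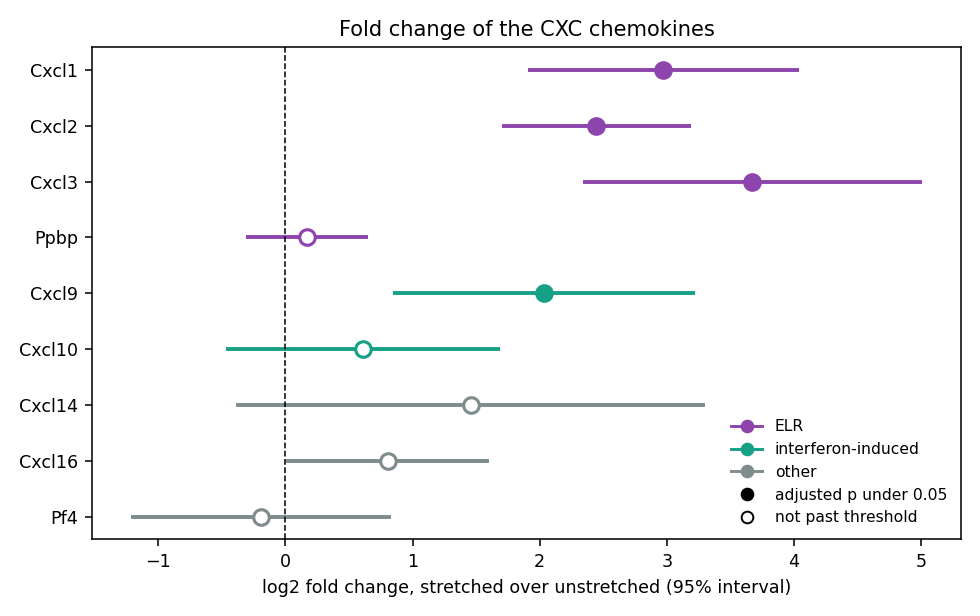
Log2 fold change, stretched over unstretched, of each member with its 95% interval from edgeR. The intervals of Cxcl1, Cxcl2, Cxcl3 and Cxcl9 lie wholly above 0, that of Cxcl16 only just, with an adjusted p of 0.156, and those of Ppbp, Cxcl10, Cxcl14 and Pf4 cover it.

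**Figure D4:**
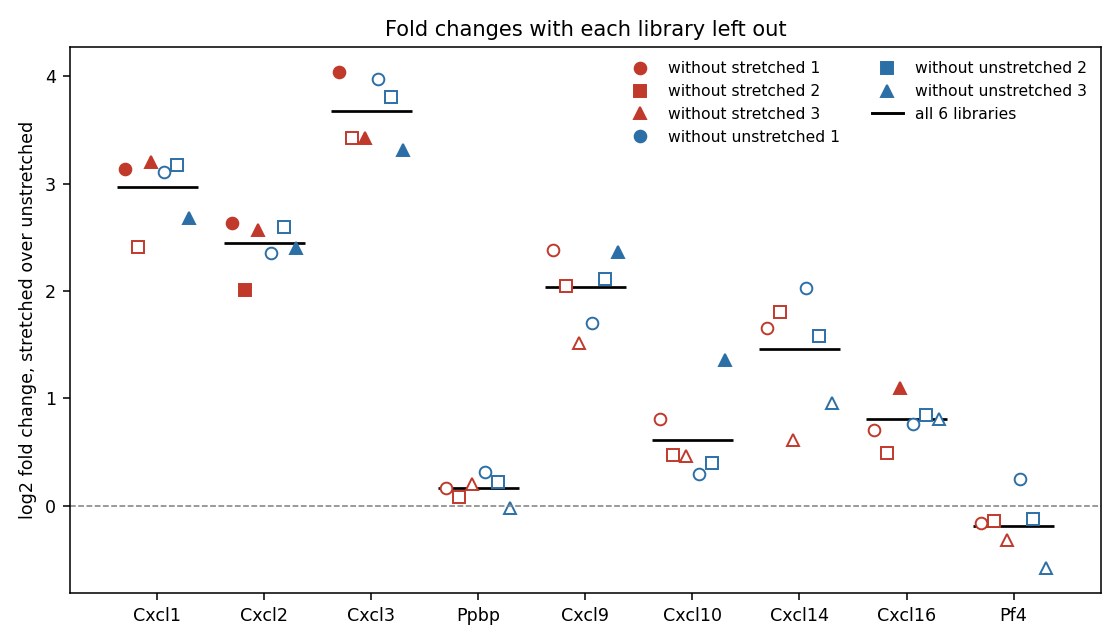
Log2 fold change, stretched over unstretched, of each member with all libraries (line) and after leaving out single libraries (filled where the adjusted p of edgeR was under 0.05, open where not). Cxcl1, Cxcl2, Cxcl3 and Cxcl9 stay above 1 in every setting shown, Cxcl10 moves to 1.36 without unstretched 3, and Pf4 and Ppbp lie on both sides of 0.

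Levels of different genes were compared per length, as the deposited FPKM, which is scaled to gene length and library total. By mean FPKM in stretched macrophages the order was Pf4 (602 ± 117.5 FPKM), Cxcl2 (383 ± 133 FPKM), Cxcl16 (356 ± 140 FPKM), Cxcl10 (259 ± 65.8 FPKM), Cxcl3 (239 ± 119 FPKM), Ppbp (219 ± 5.86 FPKM), Cxcl1 (178 ± 81.5 FPKM), Cxcl14 (48.0 ± 39.4 FPKM) and Cxcl9 (35.9 ± 21.9 FPKM; SD, n = 3 each). From Cxcl2 to Cxcl1 in this order, each neighbouring pair differed by less than the larger of its SDs. In unstretched macrophages Pf4 led with 779 ± 452 FPKM, ahead of Cxcl16 (236 ± 10.9 FPKM), Ppbp (224 ± 51.7 FPKM) and Cxcl10 (196 ± 143 FPKM). Cxcl2 (82.0 ± 13.2 FPKM), Cxcl1 (26.6 ± 9.79 FPKM), Cxcl3 (21.4 ± 10.5 FPKM), Cxcl14 (19.0 ± 14.3 FPKM) and Cxcl9 (9.94 ± 4.83 FPKM) came after them. Cxcl16, Ppbp and Cxcl10 overlapped in the unstretched group, as did Cxcl1, Cxcl3 and Cxcl14.

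The ELR members other than Ppbp made up a larger share of CXC chemokine RNA in stretched macrophages. Cxcl1, Cxcl2 and Cxcl3 together took 26.7%, 42.4% and 32.5% of the summed FPKM of the 9 members in stretched 1 to 3, against 6.76%, 9.41% and 8.71% in unstretched 1 to 3. The groups did not overlap. Cxcl9 and Cxcl10 together took 10.2%, 11.7% and 15.9% in stretched 1 to 3, against 5.32%, 8.50% and 31.6% in unstretched 1 to 3, with unstretched 3 the highest. The platelet-associated Pf4 and Ppbp took 40.4%, 27.7% and 39.5% in stretched 1 to 3, against 74.8%, 65.9% and 39.1% in unstretched 1 to 3. A share falls when another member rises, so these values describe make-up and not the change of any gene.

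Set against each other, the summed FPKM of Cxcl1, Cxcl2 and Cxcl3 was 2.62, 3.62 and 2.04 times that of Cxcl9 and Cxcl10 in stretched 1 to 3, against 1.27, 1.11 and 0.275 times in unstretched 1 to 3. Every stretched library had the higher ratio, and the lowest ratio was that of unstretched 3. Ppbp, an ELR member too, was left out of this sum. Its level was 225, 219 and 214 FPKM in stretched 1 to 3, against 268, 237 and 167 FPKM in unstretched 1 to 3. With Ppbp added to the sum the ratios of the groups would overlap, with stretched 1 below unstretched 1, and stretched 3 below unstretched 1 and unstretched 2. On mean log2 CPM Cxcl1, Cxcl2 and Cxcl3, again without Ppbp, exceeded Cxcl9 and Cxcl10 by 0.63, 1.02 and -0.14 in stretched 1 to 3. In unstretched 1 to 3 the difference was -0.01, -0.69 and -2.56. On that scale stretched 3 lay below unstretched 1, so the groups overlapped. No test was made of the difference between the chemokine classes, because the members were chosen with results known.

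**Figure D5:**
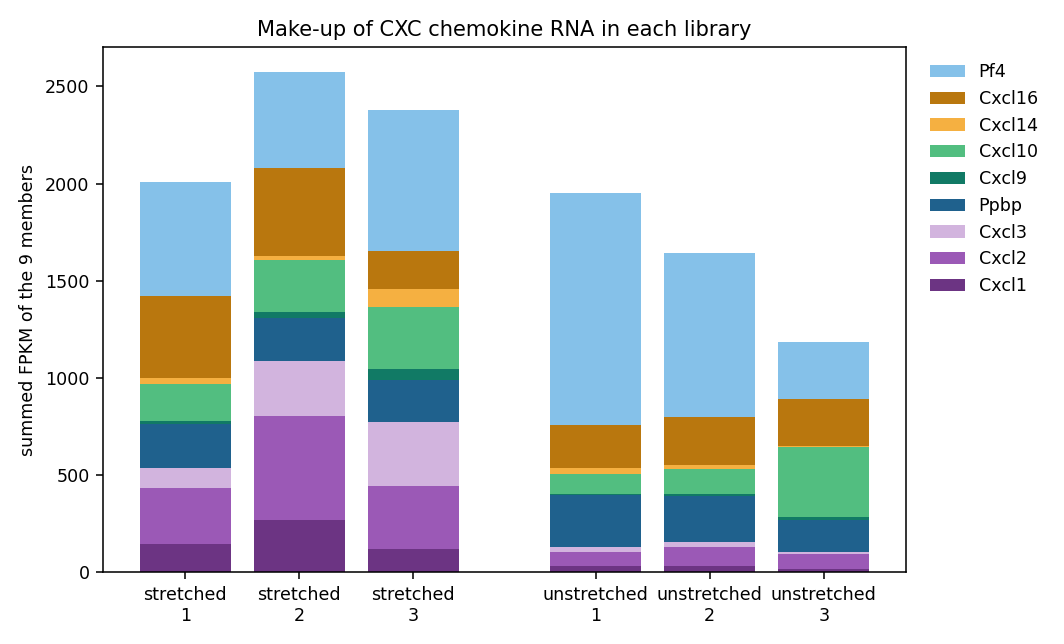
Summed FPKM of the 9 members in each library, stacked by member. Cxcl1, Cxcl2 and Cxcl3 together take 26.7% to 42.4% in the stretched libraries and 6.76% to 9.41% in the unstretched libraries, and Cxcl9 with Cxcl10 takes 31.6% in unstretched 3.

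The members lie mainly in a pair of clusters on chromosome 5 (RefSeq, GRCm38.p6). From Ppbp to Cxcl2 the ELR members span 137.4 kb, with Pf4 among them: Ppbp (90768518 to 90770063), Pf4 (90772435 to 90773383), Cxcl3 (90786101 to 90788093), Cxcl1 (90891245 to 90893121) and Cxcl2 (90903899 to 90905938). Pf4 and Ppbp are 2.37 kb apart, and Pf4 and Cxcl3 12.72 kb apart. Cxcl3, which rose 12.8-fold, thus neighbours Pf4, whose log2 fold change was -0.19 and did not pass. Cxcl5 (90759298 to 90761625) lies just before Ppbp, and Cxcl15, which lies between Cxcl3 and Cxcl1, was not analysed here. The interferon cluster begins 1415 kb beyond Cxcl2 and holds Cxcl9 (92321331 to 92328079) and Cxcl10 (92346638 to 92348889), 18.6 kb apart. Cxcl10 lies within the span of Art3, whose level was 0.965 CPM in stretched and 0.325 CPM in unstretched macrophages. Cxcl14 lies on chromosome 13 (56288643 to 56296811) and Cxcl16 on chromosome 11 (70454389 to 70459984).

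Cxcl1, Cxcl2, Cxcl3, Cxcl9, Cxcl10, Pf4 and Ppbp each had a single transcript in the deposited transcript table. No member's transcript passed the threshold over 29604 transcripts tested, where 0.00338% were called higher and 0 lower. The adjusted p of edgeR was 0.101 for Cxcl1, Cxcl2 and Cxcl3 and 0.174 for Cxcl9. At an unadjusted p under 0.05 these 4 and a non-coding transcript of Cxcl16 passed, and DESeq2 called 5 member transcripts. Cxcl16 had 3 transcripts. Its curated coding transcript took 67.5%, 63.8% and 64.1% of the gene's counts in stretched 1 to 3, against 69.4%, 68.3% and 73.1% in unstretched 1 to 3. The non-coding transcript took 30.0%, 33.7% and 33.3% in stretched 1 to 3, against 26.8%, 27.7% and 23.9% in unstretched 1 to 3. A predicted coding transcript took the remaining 2.43% to 2.56% in stretched and 3.09% to 3.96% in unstretched libraries. The groups did not overlap in any of these shares, and the exact two-sided permutation test gave p = 0.1 for each of the 3, the smallest value that 3 against 3 libraries allow. Among transcripts of genes with several, 8.1% had a share higher in all stretched libraries and 7.7% a share lower in all of them.

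Among other CXC ligands, 0 of 2 tested genes passed in either direction, also at an unadjusted p under 0.05 and with DESeq2. Cxcl5, another ELR chemokine, averaged 58.3 ± 45.5 CPM in stretched and 20.5 ± 15.7 CPM in unstretched macrophages (SD, n = 3 each), with a log2 fold change of 1.51 ± 0.68 (edgeR adjusted p = 0.176). It passed with the replicate block (log2 fold change 1.48, edgeR adjusted p = 0.0201) and without unstretched 3 (2.33, edgeR adjusted p = 0.0366). Cxcl12, the stromal ligand of CXCR4, averaged 83.7 ± 32.7 CPM in stretched and 135 ± 93.7 CPM in unstretched macrophages (edgeR adjusted p = 0.368). Cxcl13 and Cxcl17 were too low to test.

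Of the 8 receptor genes of the family, 0 passed in either direction, and their median log2 fold change was 0.038. DESeq2 called 2 of them higher, beside 1398 of all genes. At an unadjusted p under 0.05 Ackr3, the scavenger receptor of Cxcl12, and Cxcr5, the receptor of Cxcl13, were higher. Over all genes, 4083 of the 12892 tested had an unadjusted p under 0.05. The edgeR adjusted p was 0.0511 for Ackr3 and 0.0739 for Cxcr5, and both were named after their values were seen. Cxcr5 was low, at a mean of 1.91 CPM in stretched and 0.428 CPM in unstretched macrophages. Cxcr4 averaged 62.2 ± 4.19 CPM in stretched and 62.0 ± 45.9 CPM in unstretched macrophages. Cxcr2, the receptor of Cxcl1, Cxcl2 and Cxcl3 and a gene of neutrophils, averaged 21.9 ± 10.9 CPM in stretched and 34.8 ± 20.7 CPM in unstretched macrophages (edgeR adjusted p = 0.364). Cxcr2 reached 58.4 CPM in unstretched 3, in which all 10 neutrophil markers were above the mean of unstretched 1 and 2, and their part in its level was not tested. The log2 fold change of Cxcr2 was -0.67, and -0.070 without unstretched 3. Without unstretched 3, 3 receptor genes were called higher, Cxcr4 among them (log2 fold change 0.81, edgeR adjusted p = 0.0057). In that setting 2095 of all genes were called higher.

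With all libraries, counts of calls in the lists that follow stand beside 6.55% of all genes called higher and 5.38% called lower. With libraries left out, the number called over all genes moved too. It was 133, 33 and 556 higher without stretched 1, 2 and 3, and 64, 0 and 2095 higher without unstretched 1, 2 and 3. The lists were not tested against each other or against all genes. Of 14 genes for NF-kB factors and their inhibitors, which act upstream of the ELR members, 1 was higher and 0 were lower, with a median log2 fold change of 0.13. It was Tnfaip3, which encodes A20, a deubiquitinating inhibitor of NF-kB signalling and itself an NF-kB target. Tnfaip3 averaged 466 ± 253 CPM in stretched and 138 ± 21.8 CPM in unstretched macrophages (SD, n = 3 each), a log2 fold change of 1.75 ± 0.41 (edgeR adjusted p = 0.0383), and with the replicate block the adjusted p was 0.0540. Of 8 inducing cytokines, receptors and adaptors, 1 was higher and 1 lower. Il6, a cytokine of inflammation, measured 34.0, 47.3 and 53.9 CPM in stretched 1 to 3, against 4.32, 4.32 and 0.958 CPM in unstretched 1 to 3, and rose by 3.81 ± 0.49 on the log2 scale (edgeR adjusted p = 0.0145). Myd88, the adaptor of most Toll-like receptors, averaged 103 ± 9.47 CPM in stretched and 185 ± 13 CPM in unstretched macrophages and fell by 0.84 ± 0.14 (edgeR adjusted p = 0.0188). At an unadjusted p under 0.05 Nfkbia, Nfkbib, Nfkbie and Ikbkg were higher too, as were Il1a and Il1b of the inducing list. Il1a rose by 2.33 ± 0.78 and Il1b by 1.06 ± 0.36 on the log2 scale (edgeR adjusted p = 0.0883 and 0.0893). These genes were named after their values were seen, and 4083 of the 12892 genes tested had an unadjusted p under 0.05. Without stretched 3 and unstretched 3 together, 7 NF-kB genes and 5 inducing genes were called higher, beside 2700 of all genes. That setting was chosen after seeing the data. Without unstretched 3 there were 2 in each list, and without stretched 3 there were 3 inducing genes. Without stretched 2 or unstretched 2 there were 0 in each list, and without stretched 1 or unstretched 1 there were 0 NF-kB genes. Myd88 was not called without stretched 1, stretched 2, unstretched 1 or unstretched 2.

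Of 15 tested genes for interferons, their receptors and their factors, 5 were higher and 0 lower, with a median log2 fold change of 0.75. Ifnar1 and Ifnar2 encode the subunits of the type I interferon receptor. Ifnar2 averaged 429 ± 81.4 CPM in stretched and 190 ± 13.7 CPM in unstretched macrophages, a log2 fold change of 1.18 ± 0.18 (edgeR adjusted p = 0.0172). Ifnar1 averaged 409 ± 47.7 CPM in stretched and 219 ± 41.7 CPM in unstretched macrophages and rose by 0.90 ± 0.19 (edgeR adjusted p = 0.0312). Ifnb1, which encodes interferon beta, was called on few reads, with 36 counts over the stretched and 3 over the unstretched libraries, a ratio of 13.8 (95% interval 4.35 to 69.8, counting error only). It passed the filter on low counts through the stretched libraries alone. DESeq2 gave Ifnb1 no adjusted p, and a stricter filter of 5 CPM in 3 libraries left it out. The kinase Jak2 was also called.

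Of 13 tested interferon-induced genes that are not chemokines, 7 were higher and 0 lower, and their median log2 fold change was 1.46. Oasl1, an inhibitor of Irf7 translation, averaged 592 ± 199 CPM in stretched and 167 ± 43.1 CPM in unstretched macrophages, a log2 fold change of 1.82 ± 0.31 (edgeR adjusted p = 0.0204). Gbp5, a guanylate-binding protein of antimicrobial defence, averaged 269 ± 156 CPM in stretched and 55.3 ± 14.4 CPM in unstretched macrophages (log2 fold change 2.28 ± 0.42, edgeR adjusted p = 0.0227). Rsad2, the antiviral viperin, averaged 1308 ± 592 CPM in stretched and 312 ± 89.4 CPM in unstretched macrophages (log2 fold change 2.07 ± 0.41, edgeR adjusted p = 0.0258). Ifit2, Gbp2, Gbp3 and Cd274 were also called. The count of 7 went to 10 without unstretched 3 and to 2, 0, 4, 0 and 0 without stretched 1, stretched 2, stretched 3, unstretched 1 and unstretched 2. For the 5 interferon pathway genes the count was 8 without unstretched 3 and 0, 0, 2, 0 and 0 in the same order. Over all genes, the number called higher was 2095 without unstretched 3 and 133, 33, 556, 64 and 0 in the same order.

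Of 7 genes for factors that set the stability of AU-rich mRNAs such as those of chemokines, 0 were higher and 1 was lower. It was Elavl1, which encodes the stabilising protein HuR, with 65.3 ± 2.48 CPM in stretched and 96.2 ± 13.5 CPM in unstretched macrophages (log2 fold change -0.56 ± 0.14, edgeR adjusted p = 0.0458, and 0.0619 with the replicate block). Elavl1 kept its call among single libraries left out only without unstretched 3. Of 8 proteases that trim or shed chemokines, 0 passed in either direction. At an unadjusted p under 0.05 there was 1, beside 4083 of the 12892 genes tested, and DESeq2 called 1 higher, beside 1398 of all genes. Both were the collagenase Mmp13, with 1337 ± 759 CPM in stretched and 460 ± 206 CPM in unstretched macrophages (edgeR adjusted p = 0.0814). Mmp12, the macrophage elastase, had 1303 ± 811 CPM in stretched and 601 ± 259 CPM in unstretched macrophages (edgeR adjusted p = 0.168, and 0.0463 with the replicate block). Of 6 genes for chemokine binding to glycans and matrix, 2 were higher and 0 lower. Sdc1, the heparan sulfate proteoglycan syndecan 1, had 515 ± 30.0 CPM in stretched and 202 ± 50.2 CPM in unstretched macrophages, a log2 fold change of 1.35 ± 0.21 (edgeR adjusted p = 0.0188). Tnfaip6, which encodes the chemokine-binding protein TSG-6, had 4.11 ± 0.41 CPM in stretched and 1.61 ± 0.69 CPM in unstretched macrophages (log2 fold change 1.35 ± 0.34, edgeR adjusted p = 0.0455, and 0.0655 with the replicate block). The count of 2 went to 4 without unstretched 3 and to 0 without stretched 1, stretched 2, unstretched 1 or unstretched 2.

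The genes whose log2 CPM over the 6 libraries most resembled that of Cxcl2 were A530064D06Rik, Ifnar2, Hnrnph2, Plekhb2 and Fmn1, with Pearson's r of 0.997, 0.997, 0.997, 0.996 and 0.995 among 10214 genes compared. All 5 were called higher in stretched macrophages, and 320 genes reached an r over 0.95. Ifnar2 measured 391, 522 and 373 CPM in stretched 1 to 3, against 185, 205 and 178 CPM in unstretched 1 to 3, with stretched 2 the highest as in Cxcl2. The genes most like Cxcl10 were Aim2, a sensor of DNA in the cytosol, Slfn9, Rnf144a, Dennd2a and Ifitm6, with r of 0.998, 0.998, 0.996, 0.996 and 0.994. None of these 5 was called, and 133 genes reached an r over 0.95. Aim2 had 36.5, 50.2 and 48.4 CPM in stretched 1 to 3, against 24.4, 29.1 and 51.2 CPM in unstretched 1 to 3, with unstretched 3 the highest as in Cxcl10. The 6 points of each correlation fall into the study's groups and share library scaling, so r describes likeness of pattern in these libraries.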

How the data were processed

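RNA of 6 libraries was compared, 3 stretched and 3 unstretched. Per the labels' protocols, the input was 1.3 µg of RNA and the kit a SMARTER mRNA-Seq kit. The deposited gene and transcript tables hold estimated counts that are not whole, per the file headers. A second deposited value without a named unit matched the count divided by length and library total, and was taken to be the authors' FPKM. GRCm38 and mm10 are named in the submitters' processing notes. Aligner, counting tool and strandedness: not given in the sources used here.

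Estimated counts were rounded, filtered with filterByExpr (minimum count 10) and tested with edgeR 4.0.16 (R 4.3.3, quasi-likelihood, TMM factors), with Benjamini-Hochberg adjustment over all 12892 genes and a threshold of 0.05. Log2 levels used a prior count of 2. Standard errors were derived from the F statistic. Intervals and n = 3 limit precision, and intervals on counts cover counting error only. Scripts were tested on simulated counts. Of 16906 gene identifiers, 16798 matched RefSeq on GRCm38.p6. DESeq2 1.42.0 and limma 3.58.1, other scalings and filters, a replicate block and each library left out were tried as alternatives.

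The main test was unpaired. Only in the replicate block were the replicate numbers of the titles taken as pairs, which the labels do not state. In a check of this, deviations from the group means correlated at 0.286, 0.183 and 0.182 for equal numbers and at -0.24 to 0.11 for unequal numbers.

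The members and lists were chosen with earlier results of these data known. Named were all members, up to 3 members of each pathway list with the smallest p past the threshold (otherwise the 2 most abundant), and the 5 genes most like Cxcl2 and Cxcl10 among those with a mean of at least 5 CPM. A called gene of a pathway list is not reported here.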

Additional observations from a re-analysis of the deposited data

How the results depend on the processing

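Across 15 alternatives Cxcl2 was past the threshold in 13, Cxcl1 and Cxcl3 in 12 and Cxcl9 in 9, each with a positive fold change throughout. All genes called numbered 844 higher and 694 lower, against 556 and 1297 with library totals alone, 1398 and 1284 with DESeq2, and 523 and 1197 with limma on log2(FPKM + 1). Library totals moved the median log2 fold change of all genes to -0.19, and limma on log2(FPKM + 1) to -0.14. With the replicate block 408 genes were lower, and the same 4 members were called. Without stretched 3 and unstretched 3 together, a setting added after seeing the data, 2700 genes were higher and 2655 lower, 6 members were higher, with Cxcl10 and Cxcl16 added, and 1 member, Pf4, was lower. Leaving out single libraries gave 0 to 2095 genes higher and 0 to 2011 lower, and 0 to 5 members higher, with 1 without stretched 2 and 0 without unstretched 1 and without unstretched 2 (edgeR; at an unadjusted p under 0.05, 4 members in each, and 2881 and 2855 genes). The median log2 fold change ran from 2.21 (without stretched 2) to 2.89 for the ELR members and from 0.99 to 1.86 (without unstretched 3) for the interferon-induced members. Member transcripts called numbered 0, and 5 with DESeq2.

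Fold changes of 4 named genes, none of them called with all libraries, changed sign, and the cause was not tested. Ppbp was at -0.026 with library totals, -0.00081 with limma on log2(FPKM + 1) and -0.022 (without unstretched 3) to 0.31 (without unstretched 1) with single libraries left out. Pf4 was at 0.026 with limma on log2 CPM, 0.00048 with the replicate block and -0.59 to 0.25 with single libraries left out, 0.25 being without unstretched 1. Cxcl12, at -0.69 with all libraries, was at -1.08 to 0.041 with single libraries left out, 0.041 being without unstretched 3. Cxcr4, at 0.0056, was at -0.0046 with DESeq2 size factors, -0.21 with library totals, -0.0045 with DESeq2, -0.0033 with no filter, and -0.049, -0.011, -0.29 and -0.26 without stretched 1, stretched 2, unstretched 1 and unstretched 2, while it was at 0.81 without unstretched 3. With 3 libraries a group, the 95% intervals of Cxcl1, Cxcl3, Cxcl9, Cxcl10, Cxcl14 and Pf4 span more than 2 log2 units.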
